A study of Rattus norvegicus with 4 samples.

Results

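The genes described here make cholesterol and fatty acids, or control their synthesis, in primary rat astrocytes. They are a list of 35 genes set by pathway, with no threshold on measured values: 23 sterol genes of the kind driven by the transcription factor SREBP2 and 12 lipogenic genes. A gene was measured when a probe carried its symbol alone, which held for 32 of the 35, 21 sterol and 11 lipogenic, out of 18166 genes so measured in all. Hmgcs1, Mvk and Fasn were not analysed here. Each of the 32 had 1 such probe, and values are given as log2 signal, so that 1 unit is a 2-fold difference.

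Primary astrocytes of 1 day-old Sprague-Dawley rats, from cerebral cortex, spent 2 days in serum-free medium, a step meant to deplete meningeal cells and microglia. Of the 4 cultures, each measured on 1 array, 3 received control siRNA: 1 stayed untreated, 1 was given IFN-γ (interferon-γ, an inflammatory cytokine) and 1 IFN-γ plus GW. The last received SHP siRNA, IFN-γ and GW. Exposure lasted 3 h, and GW is a compound named only so in the labels. The cultures share strain, age and tissue, and siRNA transfection was common to all 4. No culture had GW without IFN-γ or SHP siRNA without GW among the samples used. With 1 array per group, no test between conditions was possible and no error can be given: each difference below is between 2 cultures and has no replicate check.

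Cholesterol is built from acetyl-CoA through mevalonate, isoprenoid units, squalene and lanosterol. When sterols in the endoplasmic reticulum are low, the escort protein Scap carries SREBP2 to the Golgi, where it is cleaved and released to activate these genes, and the Insig proteins hold Scap back when sterols are plentiful. Fatty acid synthesis is driven mainly by SREBP1c, whose gene Srebf1 is a target of the liver X receptors. Astrocytes are a main source of cholesterol and polyunsaturated fatty acids for neurons.

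The arrays had median log2 signals between 5.79 and 5.87 over all probes. A gene passed the filter when its maximum was at least 5.83, the median of the whole table, as 11790 genes did; no background level of the arrays was used here. All 32 measured members passed, 30 of them on all 4 arrays, while Stard4 and Hsd17b7 passed only through the IFN-γ array. All 9 measured astrocyte markers lay above that level on every array, with Gfap between 12.03 and 12.11 and Slc1a3 between 11.00 and 11.38. All 15 measured microglia markers did too, and their summed linear signal was 15824 untreated, 12434 with IFN-γ, 8872 with IFN-γ and GW, and 9846 with SHP siRNA. In bulk RNA, fewer cells of a type and less RNA per cell cannot be told apart. Nr0b2, the gene of small heterodimer partner and so 1 of the genes the label SHP could mean, was at 5.33, 5.14 and 5.20 with control siRNA and at 3.45 with SHP siRNA, all below 5.83.

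Most of these genes, like most genes past the filter, varied little. In 22 of 32 the highest and lowest of the 4 arrays differed by under 0.5 log2 units, 68.8% against 73.8% of all genes past the filter. Insig1 and Thrsp, 2 of 32, varied by 1 or more, 6.25% against 4.58% of all genes. The values below are given in the order untreated, IFN-γ, IFN-γ with GW, and SHP siRNA with IFN-γ and GW.

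**Figure D1:**
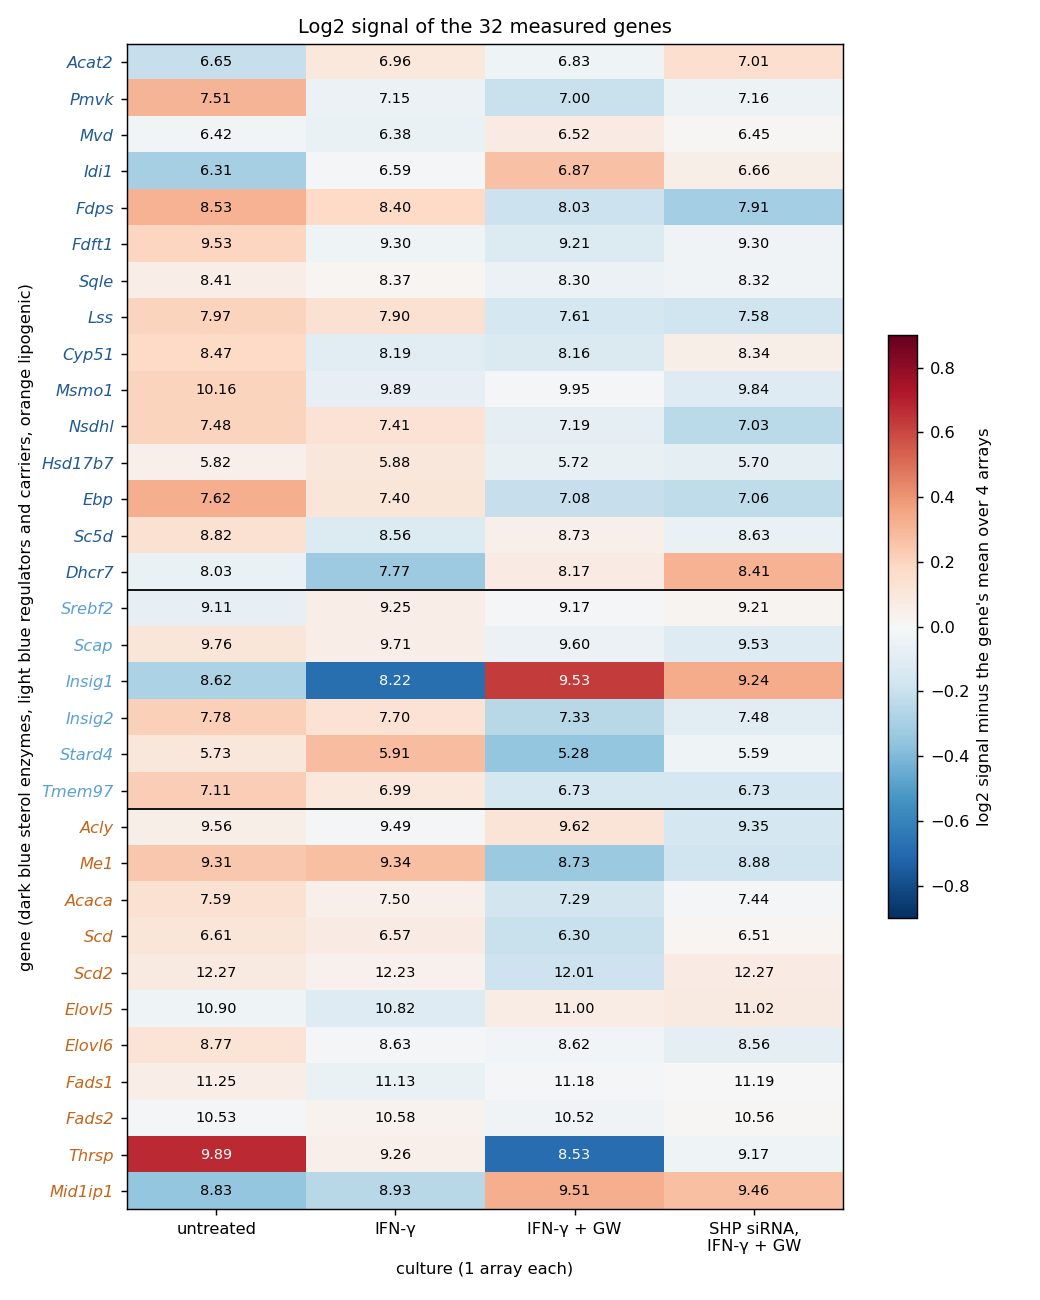
Log2 signal of the 32 measured genes (rows, sterol enzymes in pathway order, then sterol regulators and carriers, then lipogenic genes) in the 4 cultures (columns, 1 array each); the number is the log2 signal and the colour its distance from that gene's mean over the 4 arrays. The strongest colours are in the rows of Insig1, highest with IFN-γ and GW at 9.53, and Thrsp, highest untreated at 9.89.

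Insig1 was the member with the greatest difference in any of the 3 main comparisons. It encodes an endoplasmic reticulum protein that retains Scap and so restrains SREBP activation, and it is itself an SREBP target. Its log2 signal was 8.62, 8.22, 9.53 and 9.24. Both cultures with GW stood above both without it. With IFN-γ and GW it was 2.48-fold higher than with IFN-γ alone (log2 difference 1.31), rank 66 from the top of 11790 genes. It was the 1 member of 32 at least 2-fold higher in that comparison, where 0.958% of all genes were, and no member (0) was at least 2-fold lower, against 0.950%. The gap between the lower of both GW cultures and the higher of both others was 0.62. Insig1 was the 1 member with such a gap of at least 1.5-fold upward, against 0.882% of all genes, and none (0) had one downward, against 1.12%.

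Insig2, which encodes the second Insig protein and is known for a different mode of control, went the other way. Its values were 7.78, 7.70, 7.33 and 7.48. Both cultures with GW lay below both without, by a gap of -0.22. Its difference with GW was -0.38, against 1.31 for Insig1.

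The Insig1 promoter is shown because it is the member whose level differed most with GW. The stretch below is chr4:8057813-8058019 of RefSeq assembly GRCr8, minus strand, 207 bases outside the annotated gene, in which the last 43 bases before the table's start site were left off because they lie inside the annotated gene. Capitals mark, from left to right, Sp1 (as CCGCCC), NF-Y (as ATTGG) and E-box (CACGTG) letters.
Insig1: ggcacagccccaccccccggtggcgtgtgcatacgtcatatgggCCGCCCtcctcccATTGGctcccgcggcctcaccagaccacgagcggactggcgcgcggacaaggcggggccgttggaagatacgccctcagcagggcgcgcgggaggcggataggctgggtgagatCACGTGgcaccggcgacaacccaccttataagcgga
The E-box letters lie 79 to 74 bases before that start site and the NF-Y letters 193 to 189 bases before it. CACGTG was found in 3 of 17 sterol promoters (Insig1, Sc5d and Scap) and in 9.16% of promoters of genes past the filter. These are matches of letters in a window, not measured binding sites.

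Srebf2 and Scap were nearly level, unlike Insig1. The range of Insig2 over the cultures, 0.46, was also under 0.5 log2 units. Srebf2, which encodes SREBP2, was at 9.11, 9.25, 9.17 and 9.21. Scap was at 9.76, 9.71, 9.60 and 9.53. The cultures thus lay within 0.13 and 0.23 log2 units of each other for these genes. Among sterol genes outside the list, Mbtps1, which encodes the first protease that cleaves SREBP, was at 9.21, 9.04, 8.50 and 8.78, and Mbtps2, the gene of the second, at 8.15, 8.07, 7.99 and 8.10. Mbtps1 differed by -0.54 between IFN-γ with GW and IFN-γ alone, and was 1.64-fold lower with IFN-γ and GW than untreated.

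Stard4 and Tmem97, grouped here with the sterol regulators and carriers, were lower in both cultures with GW than in both without. Stard4, a cytosolic sterol transfer protein, was at 5.73, 5.91, 5.28 and 5.59, a difference of -0.63 between IFN-γ with GW and IFN-γ alone. It lay below 5.83 on 3 of 4 arrays, where values may sit at background, and under median centring it was -0.55, short of 1.5-fold. Tmem97, the sigma-2 receptor, was at 7.11, 6.99, 6.73 and 6.73. Npc1, the lysosomal cholesterol exporter and no member, was at 8.66, 8.72, 7.61 and 7.82 and differed by -1.11 with GW.

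The sterol pathway enzymes lay on both sides of 0, as all genes did, with small differences. With GW added to IFN-γ, 10 of 15 were below 0, against 57.8% of all genes. Hsd17b7, among the 10, passed the filter only through the IFN-γ array. None (0 of 15) reached 1.5-fold, where 2.82% of all genes were higher and 4.97% lower. At the entry of the pathway, Acat2, which condenses acetyl-CoA, was at 6.65, 6.96, 6.83 and 7.01. Pmvk, phosphomevalonate kinase, was at 7.51, 7.15, 7.00 and 7.16, and Mvd, which makes isopentenyl diphosphate, at 6.42, 6.38, 6.52 and 6.45. Acat2 was thus lowest and Pmvk highest in the untreated culture.

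Neighbouring enzymes of the isoprenoid steps differed in direction. Idi1, isopentenyl diphosphate isomerase, was at 6.31, 6.59, 6.87 and 6.66, lowest untreated. Fdps, farnesyl diphosphate synthase, was at 8.53, 8.40, 8.03 and 7.91. Idi1 was higher in both GW cultures than in both others and Fdps lower, by gaps of 0.07 and -0.37. The difference of IFN-γ with GW from untreated was 0.56 for Idi1 and -0.51 for Fdps. Both lay inside the middle 95% of all genes in that comparison, -0.78 to 0.76.

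The squalene and lanosterol steps were lowest with GW for some enzymes. Fdft1, squalene synthase, was at 9.53, 9.30, 9.21 and 9.30, and Sqle, squalene epoxidase, at 8.41, 8.37, 8.30 and 8.32. Lss, lanosterol synthase, was at 7.97, 7.90, 7.61 and 7.58. Sqle and Lss stood below both other cultures in both GW cultures, by gaps of -0.05 and -0.30.

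After lanosterol, 7 of the listed enzymes were measured, those that remove methyl groups and move double bonds. Cyp51, lanosterol demethylase, was at 8.47, 8.19, 8.16 and 8.34. Msmo1, the sterol C4-methyl oxidase, was at 10.16, 9.89, 9.95 and 9.84. Nsdhl, the C4 decarboxylase, was at 7.48, 7.41, 7.19 and 7.03. Each of these was highest in the untreated culture.

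Hsd17b7, a sterol ketoreductase, stayed near the filter level at 5.82, 5.88, 5.72 and 5.70. Ebp, the sterol isomerase, was at 7.62, 7.40, 7.08 and 7.06, and Sc5d, the sterol desaturase, at 8.82, 8.56, 8.73 and 8.63. Dhcr7, a reductase at the end of the pathway, was at 8.03, 7.77, 8.17 and 8.41. Ebp was thus lower in both GW cultures than in both others and Dhcr7 higher. Dhcr7 had the greatest difference of the enzymes between SHP siRNA with GW and IFN-γ alone, 0.64 or 1.56-fold, rank 188 of 11790.

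Among lipogenic genes Thrsp stood apart. It encodes Spot 14, a nuclear and cytosolic protein that promotes fatty acid synthesis and responds to thyroid hormone and carbohydrate. Its log2 signal was 9.89, 9.26, 8.53 and 9.17. The untreated culture was highest and the culture with IFN-γ and GW lowest. Thrsp was 1.55-fold lower with IFN-γ than untreated (-0.63), 1.66-fold lower once GW was added (-0.73), and 1.56-fold higher with SHP siRNA than with control siRNA (0.64). It was 2.56-fold lower with IFN-γ and GW than untreated (-1.36), and with SHP siRNA it lay 0.08 below the culture with IFN-γ alone. These differences share arrays, so they are not independent.

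The median and the summed signal of the microglia markers were also highest in the untreated culture and lowest with IFN-γ and GW, though single markers differed in order. Their median log2 signal over 15 genes was 9.82, 9.18, 8.68 and 8.83 in the same order, and the summed signals are given above. Aif1, which encodes a microglial actin-binding protein, was at 9.64, 9.11, 8.61 and 8.54, lowest with SHP siRNA. Ptprc was highest with IFN-γ alone, at 9.09. The part of these markers in the Thrsp values was not tested.

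Mid1ip1, the paralog of Thrsp that promotes acetyl-CoA carboxylase polymerisation, did not share its pattern. It was at 8.83, 8.93, 9.51 and 9.46. Both GW cultures lay above both others, by a gap of 0.52. Its difference with GW was 0.58, just short of 1.5-fold (0.585), and 0.63 to 0.66 under quantile normalization, median centring and cyclic loess.

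The Thrsp promoter is shown beside that of Insig1, since these were the members that varied most. It is chr1:161138965-161139214 of GRCr8, minus strand, the 250 bases before the start, with Sp1 letters (CCGCCC) and NF-Y letters (ATTGG) in capitals.
Thrsp: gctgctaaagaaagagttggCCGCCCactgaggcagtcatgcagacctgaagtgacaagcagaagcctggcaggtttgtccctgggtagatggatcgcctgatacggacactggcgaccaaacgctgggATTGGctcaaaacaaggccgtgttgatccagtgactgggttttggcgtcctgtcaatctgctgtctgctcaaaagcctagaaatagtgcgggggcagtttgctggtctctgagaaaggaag
It held no E-box letters (CACGTG), unlike the stretch of Insig1.

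**Figure D2:**
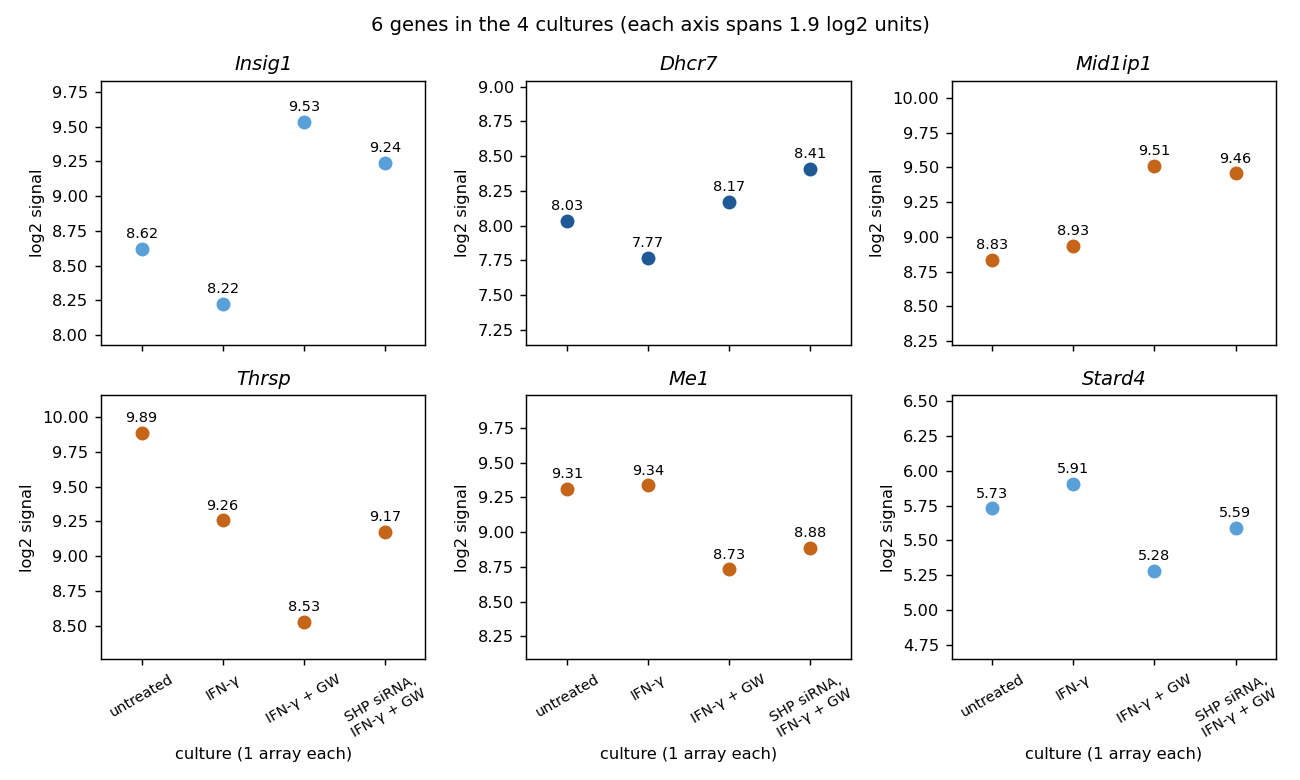
Log2 signal (vertical axes, each spanning the same number of log2 units) of Insig1, Dhcr7, Mid1ip1, Thrsp, Me1 and Stard4 in the 4 cultures (horizontal axes, 1 point per array, with its value). Insig1, Dhcr7 and Mid1ip1 are higher in both cultures with GW, while Thrsp, Me1 and Stard4 are lower, Thrsp at 8.53 with control siRNA and 9.17 with SHP siRNA. The gaps of Dhcr7 and Thrsp between both cultures with GW and both others are 0.14 and -0.08. Stard4 passed the filter only through the IFN-γ array and lies below 5.83 on the others.

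The enzymes that supply carbon and reducing power differed from each other. Me1, malic enzyme, which makes NADPH, was at 9.31, 9.34, 8.73 and 8.88. Both GW cultures lay below both others, and the difference with GW was -0.60, or 1.52-fold lower, but -0.52 to -0.53 under the same 3 scalings, short of 1.5-fold. Acly, which makes cytosolic acetyl-CoA, was at 9.56, 9.49, 9.62 and 9.35. Acaca, acetyl-CoA carboxylase, was at 7.59, 7.50, 7.29 and 7.44.

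Elongases and polyunsaturated fatty acid desaturases differed little between cultures. Fads2 was at 10.53, 10.58, 10.52 and 10.56 and Fads1 at 11.25, 11.13, 11.18 and 11.19; these desaturases act on polyunsaturated fatty acids. Elovl5, which elongates them, was at 10.90, 10.82, 11.00 and 11.02, and Elovl6, which elongates palmitate, at 8.77, 8.63, 8.62 and 8.56. None of these 4 genes varied by more than 0.21 log2 units over the cultures.

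The stearoyl-CoA desaturase genes, whose products make oleate, were both lowest with IFN-γ and GW under control siRNA. Scd was at 6.61, 6.57, 6.30 and 6.51 and Scd2 at 12.27, 12.23, 12.01 and 12.27. With SHP siRNA they were 0.22 and 0.26 higher than with control siRNA. As paralogs they can share probe sequence, which was not examined here.

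With IFN-γ the list medians stood close to that of all genes, though more of the members lay below 0. Of 32, 0 were at least 1.5-fold higher and 1, Thrsp, at least 1.5-fold lower, against 3.02% and 1.59% of all genes. None reached 2-fold in either direction (0 of 32), where 1.61% of all genes were higher and 0.288% lower. Of the 21 sterol genes 16 lay below 0, with a median of -0.08 and a range from -0.39 (Insig1) to 0.31 (Acat2). Of the 11 lipogenic genes 8 lay below 0, with a median of -0.06. Over all genes the median was -0.04 and 59.8% lay below 0. Over the 4 cultures, 19 of 32 members were highest untreated, 59.4% against 39.1% of all genes. From untreated to IFN-γ to IFN-γ with GW, 16 of 32 were lower at each step, 50% against 33.3%. Both shares were counted only on the values as deposited. Among the 16, the step to GW turned positive for Sqle, Cyp51 and Elovl6 under median centring. Under cyclic loess it did so for Fdft1, Cyp51 and Elovl6. The reason for these shares was not tested.

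With GW added to IFN-γ, 1 of 32 (Insig1) was at least 1.5-fold higher and 3 (Stard4, Me1 and Thrsp) at least 1.5-fold lower, against 2.82% and 4.97% of all genes. Stard4 passed the filter only through the IFN-γ array, the higher side of this comparison, so its call carries no weight beside that share. Without it 2 were lower, and under median centring 1 (Thrsp). Sterol genes had a median of -0.11, with 15 of 21 below 0. Among the 15 are Stard4 and Hsd17b7, which passed the filter only through the IFN-γ array and so carry no weight in that count. Under the filter on the mean, which drops both, the sterol median was -0.086 over 19 genes. It was -0.044 under quantile normalization, -0.030 under median centring and -0.016 under cyclic loess. Lipogenic genes had a median of -0.06, with 7 of 11 below 0. Over all genes the median was -0.05 and 57.8% lay below 0. Reference genes such as Hprt1 had a median of -0.23 in this comparison over 9 genes, astrocyte markers -0.23 and microglia markers -0.46, and their part in the members' values was not tested. The direction of genes near 0 depended on the scaling. After median centring and after cyclic loess 12 of 21 sterol and 5 of 11 lipogenic genes lay below 0.

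Taking both GW cultures against both others, 6 of 32 members were higher without overlap and 15 lower, against 21.4% and 37.7% of all genes. The 6 were Mvd, Idi1, Dhcr7, Insig1, Elovl5 and Mid1ip1. The 15 comprised 10 sterol genes, among them Fdps, Lss, Ebp and Nsdhl, and the lipogenic genes Me1, Acaca, Scd, Elovl6 and Thrsp. Stard4 and Hsd17b7 are also among those 10. They passed the filter only through the IFN-γ array, on the higher side of this comparison, so they carry no weight beside that share. The difference of Elovl6 between IFN-γ with GW and IFN-γ alone turned positive under all 3 scalings (0.068, 0.072 and 0.068) and that of Sqle under median centring (0.010). The cultures in each pair differ in treatment or siRNA and are not replicates.

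The SHP siRNA culture was set against the control siRNA culture that also had IFN-γ and GW. Sterol gene differences ran from -0.30 (Insig1) to 0.24 (Dhcr7), leaving aside Stard4, which was below 5.83 on both arrays. Over all 21 they had a median of -0.02, with 11 below 0, or 10 to 12 under the 3 other scalings. Lipogenic genes had a median of 0.04 with 8 of 11 above 0, or 6 of 11 after cyclic loess. Over all genes the median was 0.01. Thrsp was the 1 member of 32 at least 1.5-fold higher, against 1.42% of all genes, and 0 were lower, against 1.20%. No member reached 2-fold (0 of 32), where 0.144% of all genes were higher and 0.263% lower. In the same comparison the medians of astrocyte, microglia and meningeal markers were 0.24, 0.17 and 0.46, and the part of these markers was not tested.

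**Figure D3:**
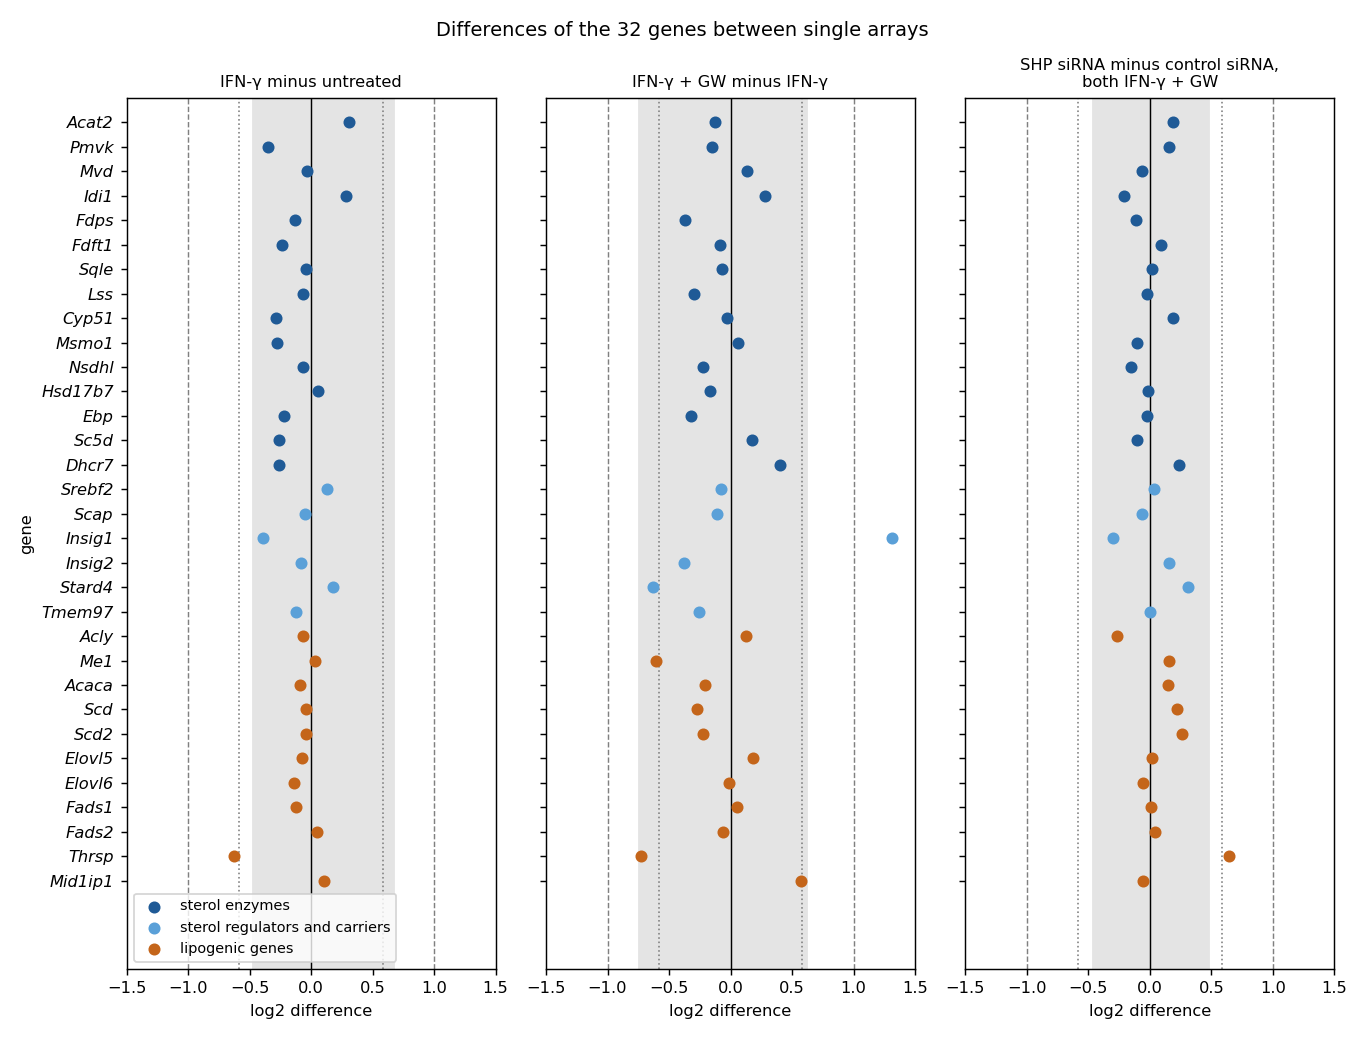
Log2 difference (horizontal axis) of each of the 32 genes (rows) in the 3 main comparisons (panels), each between 2 single arrays; the grey band holds the middle 95% of 11790 genes, dotted lines mark 1.5-fold and dashed lines 2-fold. Outside the band lie Thrsp with IFN-γ (-0.63), Insig1 with GW (1.31) and Thrsp with SHP siRNA (0.64).

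The other differences among the arrays set the combined treatments against the untreated culture or IFN-γ alone. Between IFN-γ with GW and untreated, Insig1 (0.92) and Mid1ip1 (0.68) were at least 1.5-fold higher and Thrsp (-1.36) lower, 2 and 1 of 32 against 3.95% and 6.62% of all genes. At 2-fold none was higher (0 of 32) and Thrsp alone lower, against 1.65% and 0.840%. The sterol median was -0.21 and that of all genes -0.08. Between SHP siRNA with IFN-γ and GW and untreated, Insig1 (0.62) and Mid1ip1 (0.62) were at least 1.5-fold higher and Fdps (-0.62) and Thrsp (-0.71) lower, 2 and 2 of 32 against 4.07% and 6.23%. None reached 2-fold (0 of 32), where 1.59% of all genes were higher and 0.882% lower. Between that culture and IFN-γ alone, Insig1 (1.01) and Dhcr7 (0.64) were at least 1.5-fold higher, 2 of 32 against 2.00%, and none lower (0 of 32), against 3.72%. At 2-fold Insig1 was higher and none lower (0 of 32), against 0.450% and 0.407%. All 3 comparisons share arrays with those above.

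Genes of the same pathways outside the list were counted in the same way. Of 13 other sterol genes 1 (Npc1) was at least 1.5-fold lower with GW and 0 higher, against 4.97% and 2.82% of all genes. With IFN-γ none of the 13 reached 1.5-fold (0), where 3.02% of all genes were higher and 1.59% lower. The greatest size was that of Erlin1, an SREBP-restraining membrane protein, at -0.50. With SHP siRNA none of the 13 reached 1.5-fold (0), where 1.42% of all genes were higher and 1.20% lower. Lbr, a sterol reductase of the nuclear envelope, differed by -0.36 and Ggps1, which makes geranylgeranyl diphosphate, by 0.33.

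Of 17 other fatty acid and glycerolipid genes 1 was at least 1.5-fold higher with GW, Srebf1, and 1 lower, Acsl1, an acyl-CoA synthetase. Among all genes 2.82% were higher and 4.97% lower. Srebf1, which encodes SREBP1, was at 8.77, 8.74, 9.36 and 9.52, higher in both GW cultures than in both others. Acsl1 was at 7.58, 8.10, 7.40 and 7.42, highest with IFN-γ alone. The long-chain synthetase genes Acsl5 and Acsl4 differed by -0.56 and -0.47 with GW. With IFN-γ none of the 17 reached 1.5-fold (0), where 3.02% of all genes were higher and 1.59% lower. Acsl1 differed by 0.52, Lpin1, a phosphatidate phosphatase, by -0.49 and Aacs, acetoacetyl-CoA synthetase, by -0.39.

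Among 11 liver X receptor targets outside the list, which include Srebf1 again, 2 were at least 1.5-fold higher with GW, Mylip (0.67) and Srebf1 (0.62), and 0 lower. The shares of all genes were 2.82% and 4.97%. Mylip, a ubiquitin ligase, was at 7.04, 6.43, 7.10 and 7.19, lowest with IFN-γ alone like Insig1. The sterol exporter genes Abca1 and Abcg1 were at 10.18, 10.12, 10.34 and 10.64, and at 8.72, 8.21, 8.63 and 8.88. The list median with GW was -0.11.

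Fatty acid oxidation genes belong to the opposite pathway. Of 15, 1 was at least 2-fold higher with GW and 0 lower, against 0.958% and 0.950% of all genes. In that comparison 12 of the 15 lay below 0 with a median of -0.23, against 57.8% and -0.05 over all genes. The gene past 2-fold was Pdk4, a kinase that shuts carbohydrate out of oxidation, at 9.24, 7.99, 9.41 and 8.53. Pdk4 was lowest with IFN-γ alone, as was Insig1, but lay 0.88 lower with SHP siRNA than with control siRNA, where Insig1 lay 0.30 lower. With IFN-γ and GW, Pdk4 lay 0.18 above untreated. Angptl4, an inhibitor of lipoprotein lipase, was at 8.54, 9.82, 10.33 and 9.63. With IFN-γ, 1 of the 15 (Angptl4) was at least 2-fold higher and 1 (Pdk4) lower, against 1.61% and 0.288% of all genes. With SHP siRNA, 2 (Pdk4 and Angptl4) were at least 1.5-fold lower and 0 higher, against 1.20% and 1.42%.

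**Figure D4:**
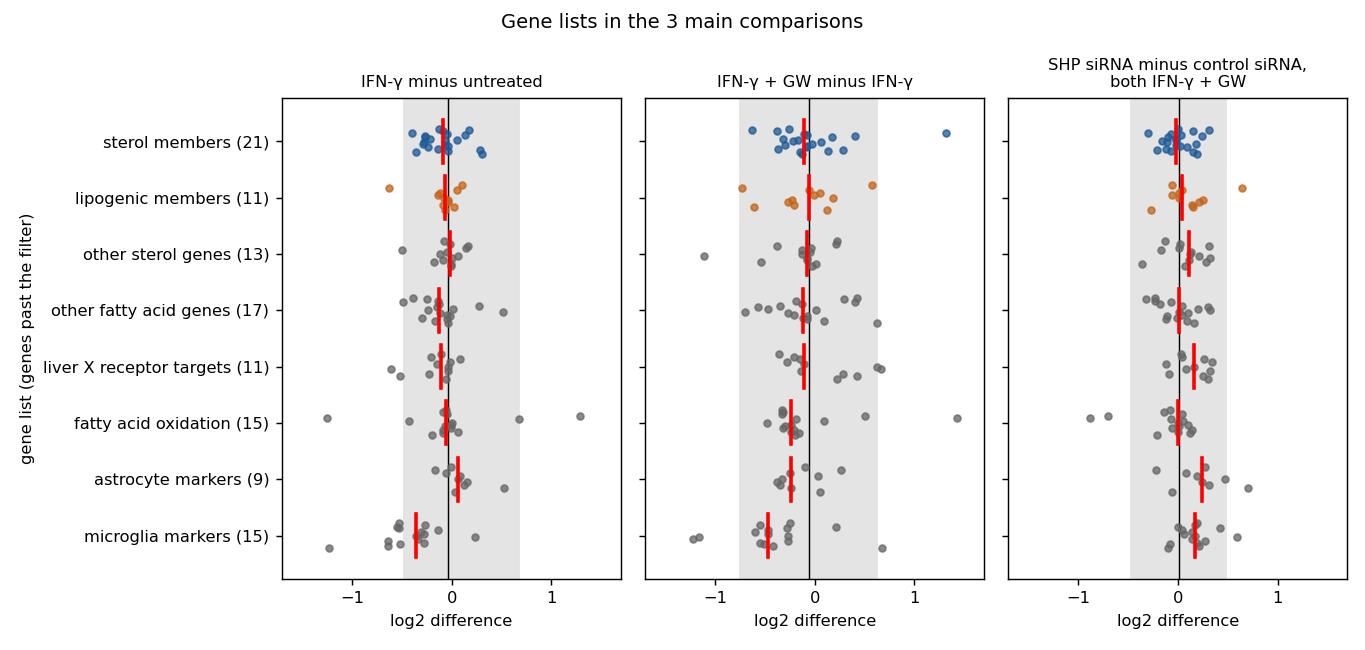
Log2 difference (horizontal axis) of the genes past the filter in 8 lists (rows, number of genes in brackets) in the 3 main comparisons (panels); points are genes, red bars list medians, the black line the median of all genes and the grey band their middle 95%. Sterol and lipogenic members lie mostly inside the band, with medians of -0.11 and -0.06 with GW, while microglia markers lie lower, at -0.46.

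Promoter letters were examined as well. The list was chosen by pathway, but its sterol genes are of the kind driven by SREBP2. Shares of letters known from SREBP targets are therefore not independent of how the list was chosen. RefSeq promoters of GRCr8, 250 bases before to 50 after the start, were held for 26 of the 32 members, 17 sterol and 9 lipogenic. CCAAT, the letters of the NF-Y box, which SREBP targets are known to carry, was found on either strand in 13 of 17 sterol promoters (76.5%) and 5 of 9 lipogenic promoters (55.6%). It was found in 36.9% of promoters of genes past the filter and 37.5% of all 33469. GGGCGG, the Sp1 letters, was found in 14 of 17 and 6 of 9, against 59.6% and 33.1%. TCACNCCAC, a form of the sterol regulatory element, was found in 0 of 17 and 0 of 9, against 1.08% and 1.12%, which says only that these letters are not in these windows. No motif contains another, though matches can overlap at their ends.

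The NF-Y letters were found in promoters of sterol genes that were higher with GW and of sterol genes that were lower. The following windows show, in capitals, the match nearest the start outside the annotated gene (CCAAT, or ATTGG where it lies on the opposite strand) with 8 bases on each side, for Idi1, higher in both GW cultures, and for Fdps, Lss, Nsdhl and Ebp, lower in both. Their GRCr8 positions are chr17:66547547-66547567 (minus strand), chr2:176804889-176804909 (minus), chr20:12118300-12118320 (minus), chrX:155817261-155817281 (plus) and chrX:16971339-16971359 (plus).
Idi1: aagatgccATTGGctggcgac
Fdps: tcattcagCCAATcagcgaac
Lss: atgctctgATTGGccgcgctc
Nsdhl: gagcgtcaATTGGctacgcca
Ebp: ggactcctATTGGcagaagcc
The matches begin 35, 85, 82, 91 and 115 bases before the start in that order.

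**Figure D5:**
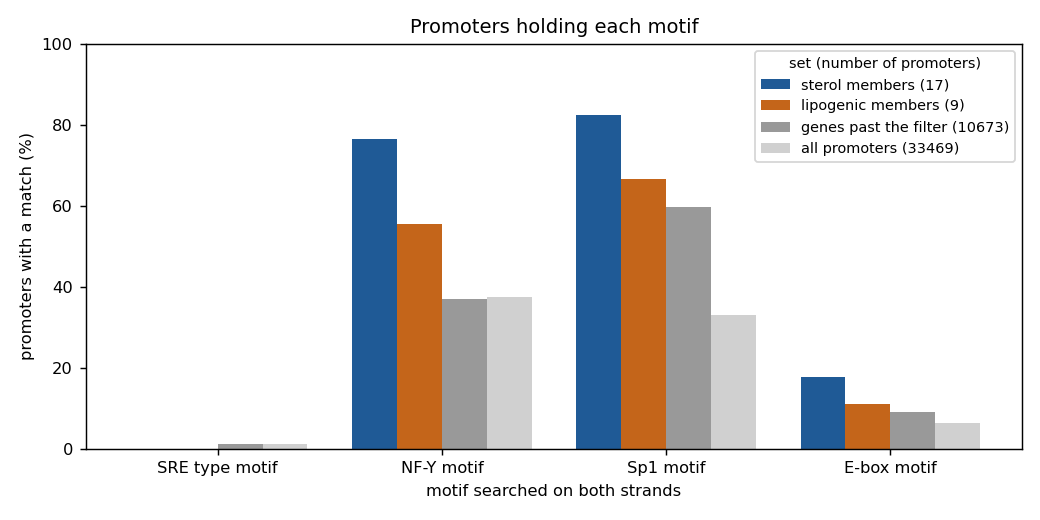
Share of promoters (vertical axis, percent) holding each of 4 motifs (horizontal axis, either strand) in sterol members, lipogenic members, genes past the filter and all promoters (bars, number of promoters in brackets). The NF-Y motif is in 76.5% of 17 sterol promoters and 36.9% of promoters of genes past the filter, and the sterol regulatory element form is in none of the members' windows.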

How the data were processed

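Total RNA was labelled with biotin and hybridised to 1 array per culture, per the labels' protocols. The deposited table has 29489 probes with 1 value each per array, taken as log2 signal because the values run from 1.14 to 13.4. How the authors corrected background, summarised probes and normalized, and the log base, is not stated in any source used here, and every fold assumes log2. Of the probes, 18511 carried 1 gene symbol, 575 several and 10403 none, and only the first were named. Of the 18511, 18394 had an Entrez identifier in the RefSeq gene table of GRCr8, with 0 differing symbols. The probe with the highest mean stood for a gene, and genes with a maximum of at least 5.83 were kept. Differences are between 2 arrays, counted at 1.5-fold and 2-fold. There are 0 replicates, so no p-value is given. The members and lists were chosen with earlier results of these data known, and the comparison of both GW cultures with both others was added after seeing the values. Genes outside the list were named by rule: up to 4 per list and main comparison with the greatest size of difference, plus Srebf1, Abca1, Abcg1, Nr0b2 and defining markers. Mbtps2 was named after its values were seen, beside Mbtps1. The lists of oligodendrocyte, neuron and reference genes had medians with GW of -0.12, 0.12 and -0.23. The counting steps were tested on simulated data. Alternatives were quantile normalization, median centring, cyclic loess (limma 3.58.1 in R 4.3.3), no filter, a filter on the mean, the mean of a gene's probes and list means. A planned comparison of paralog proteins was not run, and a pseudocount was not needed for log2 values. Python 3.11.15 did the rest.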

Additional observations from a re-analysis of the deposited data

How the results depend on the processing

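Insig1 ranged from 1.31 to 1.39 and Thrsp from -0.73 to -0.64 with GW over the alternatives, and signs differed only for members near 0. In each of the 3 main comparisons, all 190 values of members under the alternatives differed from the value as deposited by less than the half-width of the middle 68% of all genes (0.17, 0.28 and 0.19), used because no replicate spread exists. The filter settings and the mean of probes could not change a member's value, because each member has 1 probe. Only values under quantile normalization, median centring and cyclic loess could differ. The half-width exceeded many members' own differences, so staying within it does not bear on their sign. With GW, 2 members were at least 1.5-fold higher under quantile normalization, 2 under median centring and 2 under cyclic loess (Mid1ip1 joining Insig1), and 1 was lower under median centring (Thrsp), 2 under quantile normalization, cyclic loess and the filter on the mean, against 3 as deposited. The lipogenic median with GW was 0.020 under median centring and 0.043 under cyclic loess. The sterol median with SHP siRNA was 0.0026 under quantile normalization, 0.0019 under cyclic loess and 0.0092 as a mean. The causes were not tested. The sterol median with GW ranged from -0.112 to -0.016. No other count of members at 1.5-fold or 2-fold in the 3 main comparisons changed. Counts below 0 did change. With SHP siRNA, 10, 12 and 10 of 21 sterol genes lay below 0 under quantile normalization, median centring and cyclic loess, against 11 as deposited. With GW under quantile normalization, 14 of 21 sterol and 6 of 11 lipogenic genes lay below 0. The filter on the mean dropped Stard4 and Hsd17b7. No paired analysis was possible because each group has 1 array. The number of arrays limits the precision.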
